A study of Mus musculus with 14 samples.

Results

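Ceramides are built by joining a fatty acid to a sphingoid base, and they form the lipid part of glycolipids on the apical surface of gut cells. Ceramide synthases (Cers) choose the length of the fatty acid, fatty acid 2-hydroxylase (Fa2h) adds a hydroxyl group to it, the desaturases Degs1 and Degs2 finish the base, and Ugcg attaches the first sugar. Fatty acyl-CoA reductases (Far1 and Far2) turn fatty acids into the fatty alcohols that are used for ether lipids and waxes. Hydroxylated sphingolipids are abundant in the surface epithelium of the gut, where they stabilise the apical membrane.

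The 10 genes described here, Cers2, Cers4, Cers5, Cers6, Fa2h, Degs1, Degs2, Ugcg, Far1 and Far2, were chosen by the function of their enzymes, with earlier results of these arrays known. They are 10 of the 18820 genes measured. For each gene the probe set of highest mean was taken, but each of the 10 had only 1 probe set of its own, so that this choice removed nothing. A further probe set shared by Far2 and Ergic2 was left out. Since the members were picked with results in view, the counts below describe them and are no independent evidence.

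RNA was measured on 14 arrays in 7 groups, 1 array per sample. The sorted stem cells (SCs) were Lgr5-EGFP high cells from clonal organoids: 2 Cdx2null small intestinal (SI) samples, 2 control stomach (Sto) samples and 3 control SI samples, from organoids kept in Sto medium according to the labels. Cdx2 is the transcription factor that specifies intestinal epithelium. Cdx2null cells came from Cdx2-/fl / Lgr5-EGFP-Ires-CreERT2 organoids in which overnight 4-hydroxytamoxifen removed the remaining floxed allele, through a Cre that is active in Lgr5-expressing cells. The controls were not treated with it and carried the same Cdx2-/fl / Lgr5-EGFP genotype, so every group in the series lacked at least 1 Cdx2 allele. Whole organoids were 1 Sto sample in Sto medium, 2 Sto samples in SI medium, 1 SI sample in Sto medium and 3 SI samples in SI medium. SI medium (ENR) holds EGF, Noggin and R-spondin and lets organoids differentiate, whereas Sto medium (ENRWfg) adds Wnt3A, Fgf10 and gastrin. The mice were adults of both sexes on a mixed C57Bl6j/CBA background, and the sources do not say that the samples of a group came from separate animals, so p-values measure only the spread between these samples.

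Some libraries stood apart. Cdx2 read 8.41 and 4.88 (log2) in Cdx2null SI SCs, against 5.08 and 4.67 in control Sto SCs and 9.04, 10.05 and 8.94 in control SI SCs, so the library labelled Cdx2null SI SCs 1 retained signal. The Cdx2 probes also read a part of the gene that stays after the deletion, so this signal checks the label only in part. The library labelled SI organoids in SI medium 1 went against its label, with Cdx2 at 5.52 against 9.92 and 9.67 in SI organoids in SI medium 2 and 3, and with a mean over 6 intestinal epithelial markers of 5.72 against 10.26 and 10.16. Its mean of 3 gastric neck and pyloric gland markers was 11.48, against 7.34 and 5.26 in SI organoids 2 and 3. Sto organoids had 11.53 in Sto medium, with 9.90 and 10.99 in SI medium. Its mean of 6 gastric epithelial markers was also above the 6.06 and 4.85 of SI organoids 2 and 3. Its mean of 4 gastric pit markers, at 6.21, stayed under the 12.53 and 12.46 of Sto organoids in SI medium. The library was kept under its label, so fits on all organoid arrays count it as SI. The organoid comparisons are also given without it. On the arrays of control SI SCs 3 and of the SI organoids numbered 3 in SI medium, the upper quartile of all probe sets was 7.50 and 7.57, against 7.79 to 7.90 on the other 12. By Xist and Kdm5d, 3 arrays were from male and 11 from female cells, with 2 of the 3 male arrays among the control SI SCs. The other male array was the Sto organoid sample in Sto medium. The immune markers Ptprc and Cd3e read 3.75 to 4.34 over all arrays, but the mean of the 3 immune markers was highest in control Sto SCs (6.07 and 6.08, against 5.47 to 5.73 in control SI SCs) through Cd68, a lysosomal protein of macrophages, at 10.26 and 10.36 in control Sto SCs, against 8.56, 8.70 and 8.51 in control SI SCs. Its part in the stomach differences was not tested. The mean of 5 mesenchymal markers was at most 4.88 on any array.

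Among the 10 genes, 3 moved much more over the 7 groups than the rest. The difference between the highest and lowest group mean was 5.68 log2 units for Far2, 5.35 for Fa2h and 5.06 for Cers4. These ranges lay at the 99.6th, 99.5th and 99.3rd percentile of all genes. Far1 had a range of 2.44 and the other 6 genes ranges of 0.70 to 1.59. The median range was 1.50 over the members, against 0.63 over all 18820 genes. By mean level over the 14 arrays the members lay between percentiles 51.1 and 98.4 of all genes, and genes of matched level were not compared.

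**Figure D1:**
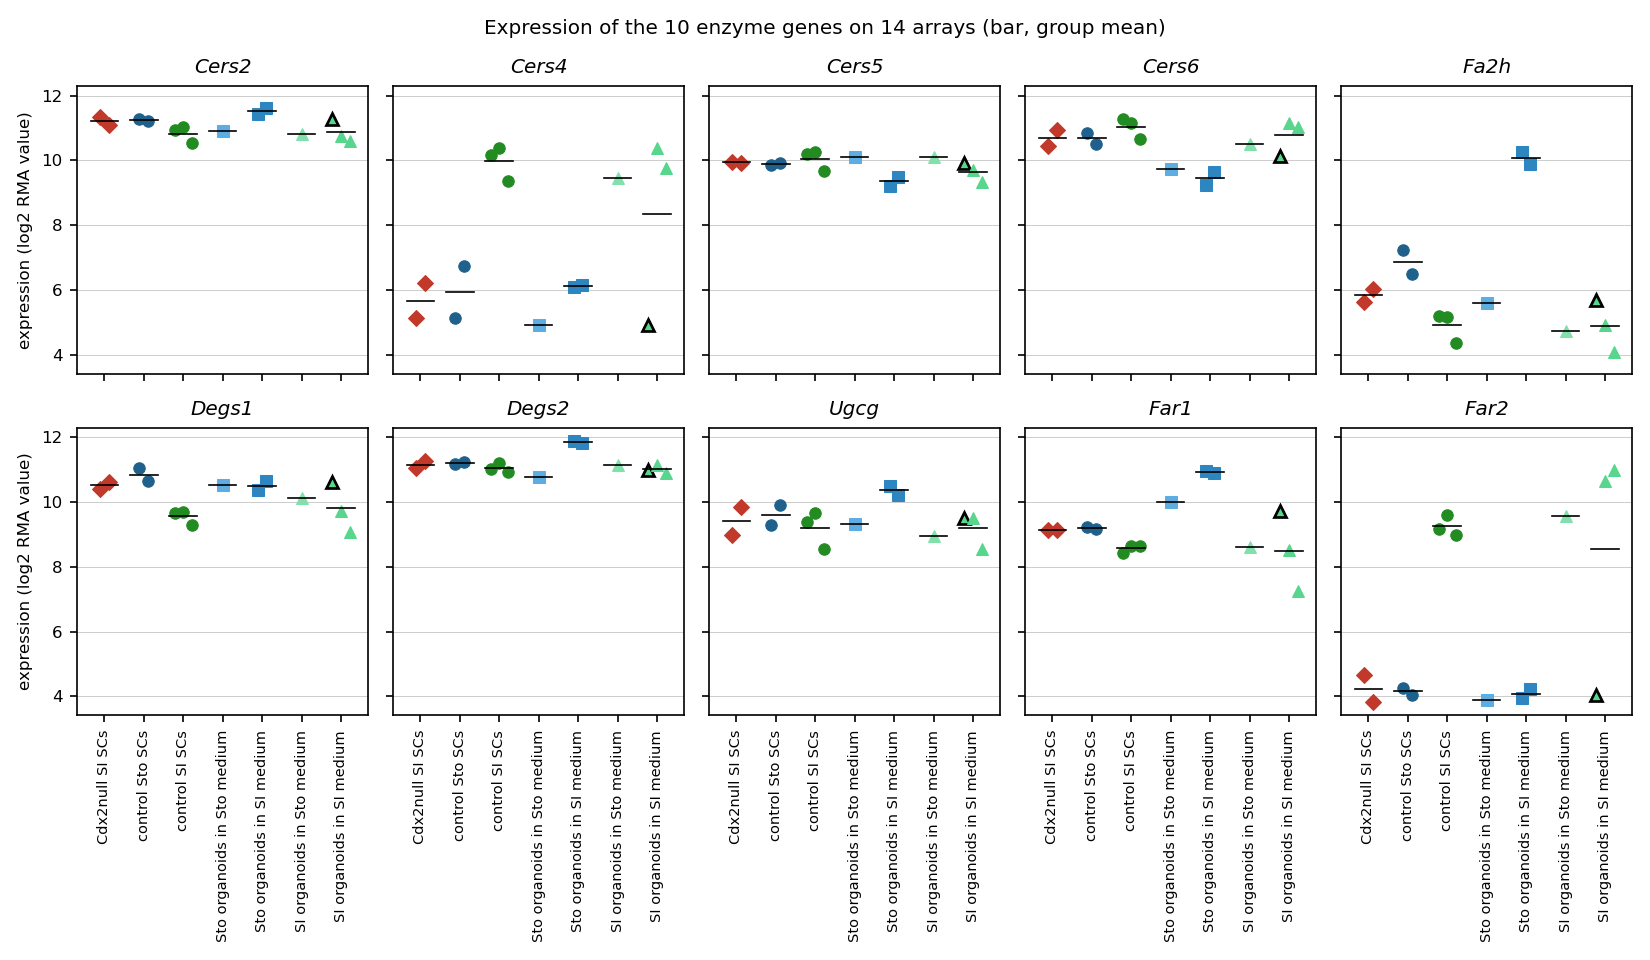
Log2 expression of the 10 genes on each of the 14 arrays, with 1 panel per gene, 1 point per array and a bar at each group mean. The point outlined in black is the library labelled SI organoids in SI medium 1. Far2 and Cers4 were high in control SI SCs and in most SI organoids, and Fa2h was high only in the 2 Sto organoid samples in SI medium.

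Far2 was high in control SI SCs and in all but 1 of the SI organoid samples, and low in every Cdx2null and stomach sample. Far2 (probe set 10542857, chr6:148047416-148182758 on GRCm38.p6) encodes a reductase that makes fatty alcohols from saturated fatty acyl-CoA. Its log2 values were 4.67 and 3.82 in Cdx2null SI SCs, 4.27 and 4.05 in control Sto SCs, and 9.16, 9.60 and 8.99 in control SI SCs. The Cdx2null and stomach samples overlapped each other and lay more than 4 log2 units under every control SI sample. The Sto organoids read 3.88 in Sto medium, with 3.95 and 4.22 in SI medium, against 9.56 for SI organoids kept in Sto medium and 4.03, 10.66 and 10.98 for those kept in SI medium, where 4.03 is the library that went against its label. Arrays with a low Cdx2 signal were also low in Far2. Cdx2null SI SCs 1, whose Cdx2 value was 8.41, had a Far2 value of 4.67.

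The 250 bases before the annotated start of Far2 are shown because this gene had the widest range of the set. They come from the RefSeq promoter table (GRCm38.p6, + strand, chr6:148047166-148047415), with capitals marking the GC box, GGGCGG or CCGCCC on the other strand.
Far2: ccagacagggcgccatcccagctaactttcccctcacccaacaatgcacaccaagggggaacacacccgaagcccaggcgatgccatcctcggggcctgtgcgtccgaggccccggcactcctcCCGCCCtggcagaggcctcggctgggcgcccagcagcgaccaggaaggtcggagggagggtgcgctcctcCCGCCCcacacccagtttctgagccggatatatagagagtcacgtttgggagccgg
The stretch was 67.2% G and C and held 2 GC boxes, a motif found on either strand in 32.7% of 32851 such windows. TTTAT, the core of caudal-type homeobox sites, was not among its letters on either strand. It was present in 37.3% of all windows, and in the promoter entries of the other members it occurred once, in 1 of 2 windows for Cers2.

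In the SC comparison for Cdx2 loss, which asks what changes in intestinal stem cells without the factor, Far2 was lower in Cdx2null than in control SI SCs (log2 difference -5.00, SE 0.29, limma adjusted p = 0.00116). In control Sto SCs it was lower than in control SI SCs as well (log2 difference -5.09, SE 0.29, limma adjusted p = 0.00104). In these low samples Far2 lay under the median of all probe sets of its own array (4.83 and 5.05 for Cdx2null, 4.88 and 4.80 for stomach). The deposited table holds no detection calls, so how far these low values are signal is unknown, and no fold is given for Far2. These 2 comparisons share the control SI samples. Far2 passed the test in every alternative fit of the 7 SC arrays apart from the methods' t-test after adjustment. It did not pass in a fit that pooled all 14 arrays (limma adjusted p = 0.56 and 0.288), and it did once the contradicting organoid library was left out of that fit (limma adjusted p = 5.89e-05 and 4.54e-05).

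Cers4 had the same direction with wider spread. Cers4 (probe set 10569972, chr8:4492818-4529603) is a ceramide synthase that uses long and very long fatty acids. Its log2 values were 5.13 and 6.20 in Cdx2null SI SCs, 5.14 and 6.75 in control Sto SCs, and 10.17, 10.38 and 9.37 in control SI SCs. All 4 Cdx2null and stomach samples were below the 3 control SI samples, and within each of those pairs the second sample was over 1 log2 unit above the first. Cers4 was 19.8-fold lower in Cdx2null than in control SI SCs (log2 difference -4.31, SE 0.55, limma adjusted p = 0.0143). It was 16.3-fold lower in control Sto SCs than in control SI SCs (log2 difference -4.03, SE 0.55, limma adjusted p = 0.0132). In Cdx2null SI SCs 1 and control Sto SCs 1, Cers4 lay just above the median of all probe sets of its array (4.83 and 4.88). How far these values are signal is unknown, so both folds are uncertain. Without control SI SCs 1 the adjusted p was 0.0647 for Cdx2 loss and 0.0593 for stomach, and without Cdx2null SI SCs 1, the library with Cdx2 signal, it was 0.0584 for Cdx2 loss, while the differences were -4.21, -3.93 and -3.77. Without control Sto SCs 1 the stomach difference was -3.23 (limma adjusted p = 0.0635).

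Among Sto organoids Cers4 read 4.92 in Sto medium, with 6.08 and 6.16 in SI medium. Among SI organoids it read 9.44 in Sto medium, with 4.91, 10.38 and 9.76 in SI medium. The low value of 4.91 again belongs to the contradicting library, and all the other SI samples lay above every Sto sample.

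The other 3 ceramide synthases kept a high level in the stem cells. Cers2 (probe set 10494227, chr3:95314771-95323599), which makes very long chain ceramides, read 11.33 and 11.09 in Cdx2null SI SCs, 11.26 and 11.21 in control Sto SCs, and 10.92, 11.03 and 10.52 in control SI SCs. Cers6 (probe set 10472501, chr2:68861145-69114284), which makes long chain ceramides, read 10.45 and 10.94 in Cdx2null SI SCs, 10.85 and 10.50 in control Sto SCs, and 11.28, 11.14 and 10.67 in control SI SCs. Cers5 (probe set 10432527, chr15:99735592-99772515), of similar chain preference to Cers6, spanned 9.67 to 10.25 over the 7 SC arrays. For Cdx2 loss their log2 differences were 0.39 for Cers2 (95% interval -0.05 to 0.84), -0.10 for Cers5 (-0.56 to 0.37) and -0.34 for Cers6 (-0.92 to 0.25), so these 3 intervals hold no change of 2-fold or more, and smaller changes remain possible. None of the 3 passed the test in either comparison with control SI SCs.

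Both desaturases were expressed at high levels, and Degs1 was the more variable one. Degs1 (probe set 10360789, chr1:182275964-182282854), which puts the double bond into dihydroceramide, read 10.42 and 10.62 in Cdx2null SI SCs, 11.05 and 10.64 in control Sto SCs, and 9.67, 9.71 and 9.30 in control SI SCs. All 4 Cdx2null and stomach samples lay above the 3 control SI samples. Degs1 was 2.44-fold higher in control Sto than in control SI SCs (log2 difference 1.29, SE 0.20, limma adjusted p = 0.0206). In Cdx2null SI SCs the log2 difference from control SI SCs was 0.96 (SE 0.20, limma adjusted p = 0.0822), which did not pass. Without control SI SCs 1 the adjusted p for stomach was 0.0637, without control Sto SCs 1 it was 0.149 and without control Sto SCs 2 it was 0.0632.

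Degs2 (probe set 10402575, chr12:108686792-108702306), an enzyme that can also hydroxylate dihydroceramide to make phytoceramide, had the narrowest spread of the set in SCs. It read 11.04 and 11.26 in Cdx2null SI SCs, 11.17 and 11.24 in control Sto SCs, and 11.03, 11.20 and 10.94 in control SI SCs. The log2 difference was 0.10 for Cdx2 loss (95% interval -0.26 to 0.45) and 0.15 for stomach (-0.20 to 0.50).

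Ugcg (probe set 10505187, chr4:59189507-59222833), the enzyme that makes glucosylceramide, varied within groups as much as between them. It read 8.97 and 9.84 in Cdx2null SI SCs, 9.29 and 9.91 in control Sto SCs, and 9.38, 9.65 and 8.54 in control SI SCs. The log2 difference was 0.22 for Cdx2 loss (95% interval -0.74 to 1.18) and 0.41 for stomach (-0.54 to 1.37), so a 2-fold rise could not be told from no change.

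Far1 moved opposite to its paralogue Far2, by a smaller step. Far1 (probe set 10556491, chr7:113513719-113571506) supplies the fatty alcohols of ether lipids, made at peroxisomes. Its log2 values were 9.15 and 9.13 in Cdx2null SI SCs, 9.23 and 9.16 in control Sto SCs, and 8.43, 8.64 and 8.66 in control SI SCs. The groups did not overlap. The log2 difference was 0.56 for Cdx2 loss (SE 0.14, limma adjusted p = 0.139) and 0.62 for stomach (SE 0.14, limma adjusted p = 0.0686), so neither passed the test.

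**Figure D2:**
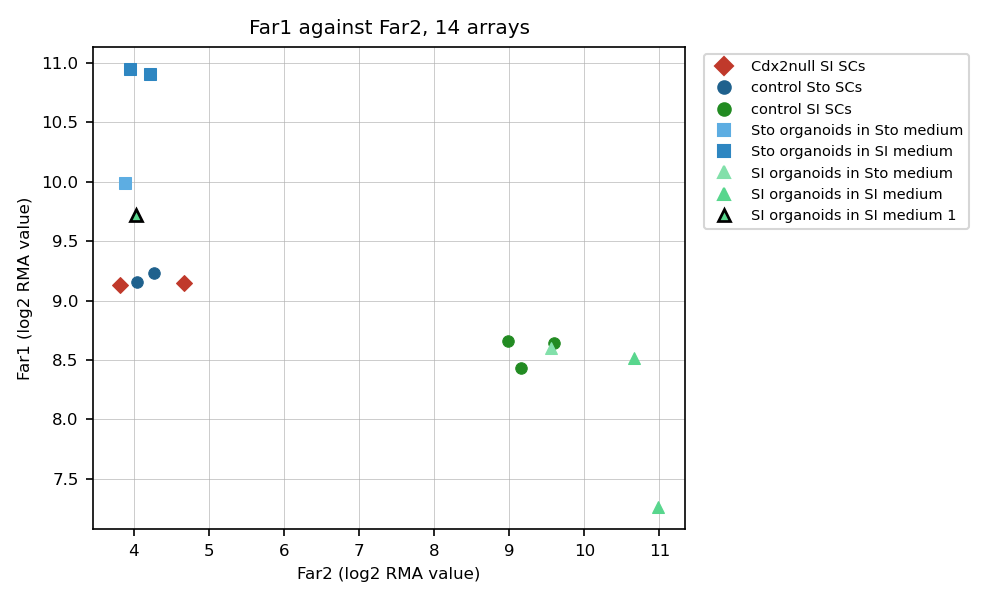
Log2 expression of Far1 (vertical axis) against Far2 (horizontal axis) on the 14 arrays, 1 point per array, with group by colour and shape. The Cdx2null and stomach samples lay at Far2 values of 3.82 to 4.67 and Far1 values of 9.13 to 10.95, and the SI samples other than the one outlined in black at Far2 values of 8.99 to 10.98 and Far1 values of 7.26 to 8.66.

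All Cdx2null and stomach samples were thus above all control SI samples on Far1 and below them on Far2, with the exception of the library labelled SI organoids in SI medium 1. Its Far1 value was 9.72, against 8.52 and 7.26 in the others of its group.

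Fa2h had the widest spread of the members among stomach samples and differed between the cultures. Fa2h (probe set 10581824, chr8:111345138-111393821) read 5.63 and 6.03 in Cdx2null SI SCs, 7.24 and 6.49 in control Sto SCs, and 5.18, 5.17 and 4.36 in control SI SCs. The 3 groups of SCs did not overlap, with Cdx2null SI SCs lying between the other two. It was 3.88-fold higher in control Sto than in control SI SCs (log2 difference 1.96, SE 0.33, limma adjusted p = 0.0301), a call that was lost when any 1 of the 5 control arrays was left out (limma adjusted p = 0.0516 to 0.171). In Cdx2null SI SCs the log2 difference from control SI SCs was 0.92 (SE 0.33, limma adjusted p = 0.328) and did not pass. Fa2h in control SI SCs 3 lay under the median of all probe sets of its array (4.72). In control SI SCs 1 and 2 it lay just above theirs (4.88 and 4.85). How far these values are signal is unknown, so the fold for stomach is uncertain.

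**Figure D3:**
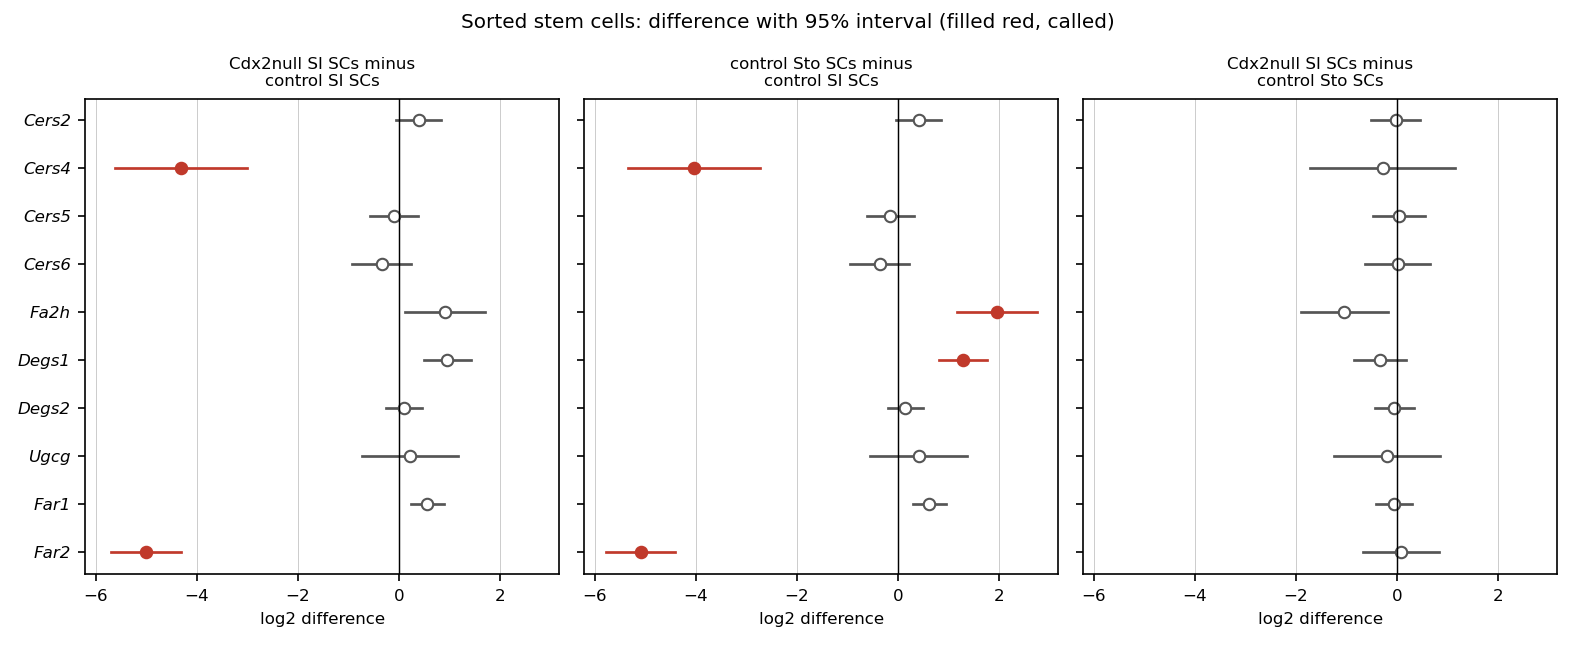
Log2 differences of the 10 genes in sorted stem cells (horizontal axis) with 95% intervals, for Cdx2null SI SCs minus control SI SCs, control Sto SCs minus control SI SCs, and Cdx2null SI SCs minus control Sto SCs. Filled red points passed the test; Cers4 and Far2 lie between -4.03 and -5.09 in the first 2 panels, and every point of the third lies between -1.04 and 0.09.

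In all, 2 of the 10 members passed for Cdx2 loss, both lower, at limma's adjusted p below 0.05 and a fold of 2 or more, against 1.52% of all genes. For stomach against SI SCs 4 of 10 passed, 2 higher and 2 lower, against 2.86% of all genes. The median log2 difference of the members was 0.16 for Cdx2 loss and 0.28 for stomach, beside 0.03 for all genes in each. With a term for sex, 1 member passed in each comparison, Far2 (limma adjusted p = 0.00411 for Cdx2 loss and 0.00369 for stomach). In that fit the contrast rests on control SI SCs 2, the only female array of its group, and Cers4 had log2 differences of -4.71 and -4.44 (limma adjusted p = 0.0625 and 0.0649).

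Cdx2null SI SCs against control Sto SCs asked whether intestinal stem cells without Cdx2 differ from stomach stem cells. Of the 10 members 0 passed limma's test, against 0.0% of all genes, with 286 of 18820 genes at an unadjusted p under 0.05. The interval of the log2 difference was -1.71 to 1.15 for Cers4 and -0.84 to 0.19 for Degs1. For Far2 it was -0.67 to 0.84, but both groups lay under their array medians there, so this interval does not show how alike its expression was. Fa2h had a log2 difference of -1.04 (95% interval -1.90 to -0.18, unadjusted p = 0.0247 by limma, adjusted p = 1), with both Cdx2null values under both stomach values. For Cers4 the interval leaves room for more than a 2-fold difference either way.

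Whole organoids of stomach and small intestine were compared with medium as a term. Far2 had a log2 difference of -4.83 (SE 1.76) in Sto against SI organoids, Cers4 -2.90 (SE 1.40), Fa2h 3.91 (SE 0.89), Far1 2.13 (SE 0.59) and Cers6 -1.16 (SE 0.30). Of the 10 members 0 passed limma's test over all 7 organoid arrays, against 0.0% of all genes, with 2595 genes at an unadjusted p under 0.05. Without the library labelled SI organoids in SI medium 1, 2 members passed, against 1.97% of all genes. Far2 was then lower (log2 difference -6.38, SE 0.27, limma adjusted p = 0.00107) and Cers4 17.6-fold lower (log2 difference -4.14, SE 0.23, limma adjusted p = 0.00215) in Sto organoids. Cers4 in the Sto organoid sample in Sto medium, at 4.92, lay just above its array median of 4.72, so this fold is uncertain as well.

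**Figure D4:**
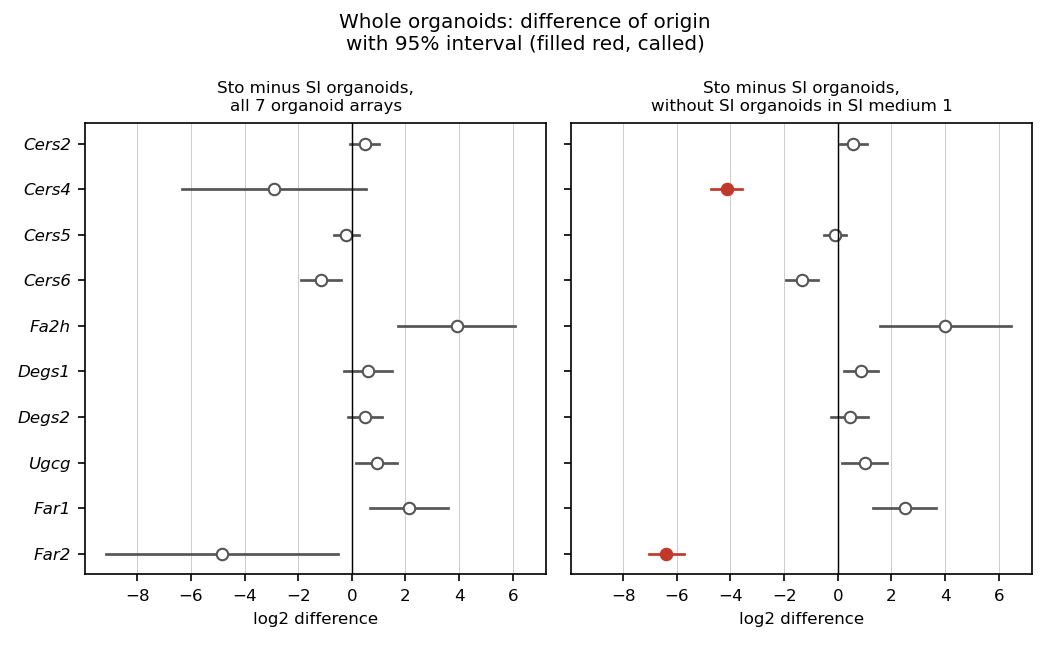
Log2 differences of the 10 genes between Sto and SI organoids (horizontal axis) with 95% intervals, over all 7 organoid arrays and without the library labelled SI organoids in SI medium 1. Filled red points passed the test; the Far2 estimate was -4.83 with all arrays and -6.38 without that library, with a narrower interval.

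Cers6 and Far1 had Sto and SI organoid values that did not overlap, without passing the test. For Cers6 the Sto organoids read 9.74 (Sto medium), 9.25 and 9.64 (SI medium), against 10.50 (Sto medium), 10.13, 11.16 and 11.02 (SI medium) for the SI organoids. For Far1 the Sto organoids read 9.99 (Sto medium), 10.95 and 10.91 (SI medium), against 8.60 (Sto medium), 9.72, 8.52 and 7.26 (SI medium) for the SI organoids. Cers6 was thus lower and Far1 higher on every Sto array. How many of all genes separate groups in this way, here or in the SCs, was not counted. Without the contradicting library limma's adjusted p was 0.0651 for Cers6 and 0.0744 for Far1.

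Degs2 had its highest values, 11.89 and 11.84, in Sto organoids kept in SI medium, against 10.79 to 11.26 on all other arrays. Ugcg was also highest there, at 10.51 and 10.23, against 8.54 to 9.91 elsewhere. For Degs1 the Sto organoids read 10.53 (Sto medium), 10.36 and 10.65 (SI medium), against 10.14 (Sto medium), 10.61, 9.72 and 9.08 (SI medium) for the SI organoids, where the origins overlapped through the contradicting library. The remaining members, Cers2 and Cers5, spanned 10.59 to 11.61 and 9.21 to 10.09 over the organoid arrays.

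For Fa2h the Sto organoids read 5.59 (Sto medium), 10.27 and 9.88 (SI medium), against 4.72 (Sto medium), 5.69, 4.91 and 4.08 (SI medium) for the SI organoids. The 2 high samples were more than 2 log2 units above all the other 12 arrays. Within Sto organoids the Sto medium sample was 22.4-fold lower than those in SI medium (log2 difference -4.48, SE 0.67, limma adjusted p = 0.114), where 0 members passed against 0.106% of all genes. Leaving the contradicting library out of the same fit gave an SE of 0.39 and an adjusted p of 0.00663, with 1 member passing against 4.33% of all genes. The Sto medium side is a single array, whose own spread is unknown and is assumed to be that of the other groups, so this call rests on 1 sample. That array is also the only male one among the organoids, so medium and sex cannot be told apart in this contrast.

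Over both origins, 0 of the 10 members passed limma's test for Sto against SI medium, against 0.0% of all genes, with 1816 genes at an unadjusted p under 0.05. The Fa2h difference was -2.20 (SE 0.98, limma adjusted p = 0.552). Without the contradicting library it was -2.13 (SE 1.04, limma adjusted p = 0.409), and 0 members passed against 0.0266% of all genes. Within SI organoids the Fa2h values give a log2 difference of -0.17 with the contradicting library and 0.23 without it, and the difference between the origins in this medium effect was not tested.

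**Figure D5:**
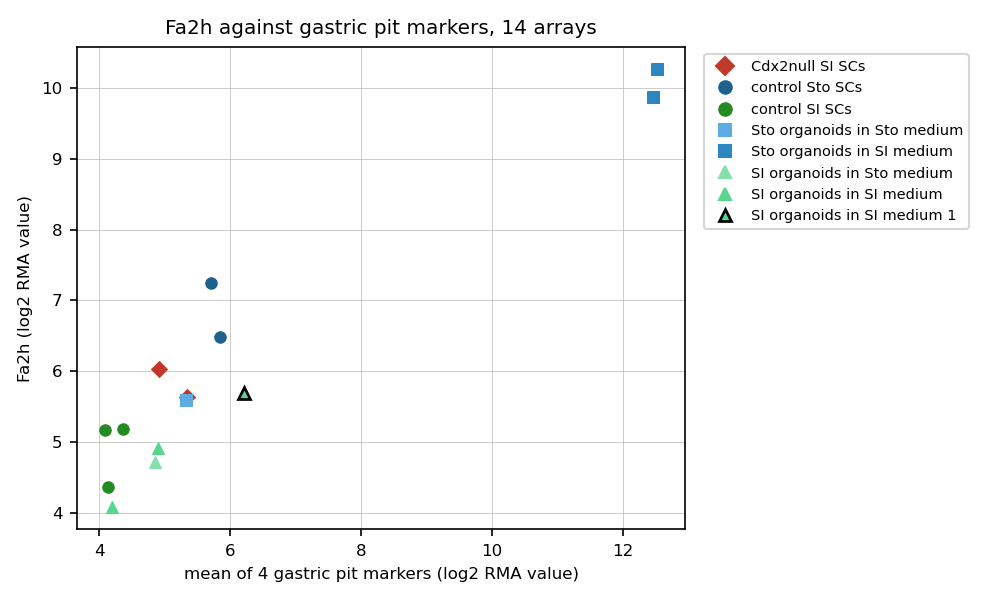
Log2 expression of Fa2h (vertical axis) against the mean log2 value of 4 gastric pit markers, Gkn1, Gkn2, Tff1 and Muc5ac (horizontal axis), on the 14 arrays. The 2 Sto organoid samples in SI medium stand apart at marker means of 12.53 and 12.46, and the other 12 arrays have marker means between 4.09 and 6.21.

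Pit cells are the mucous surface cells of the stomach. All 4 pit markers were measured, and their mean moved with Fa2h: in Sto organoids it was 5.33 (Sto medium), 12.53 and 12.46 (SI medium), against 4.85 (Sto medium) and 4.20 to 6.21 (SI medium) in SI organoids. In the SCs it was 5.34 and 4.92 in Cdx2null SI SCs, 5.71 and 5.85 in control Sto SCs and 4.09 to 4.37 in control SI SCs. Within the Cdx2null and the control Sto pair, the array with the higher pit mean had the lower Fa2h value. Muc5ac, the defining mucin, read 12.28 and 12.03 in the Sto organoids of SI medium, against 3.47 to 4.60 on the other arrays. The mean of 6 stem cell markers ran the other way, at 4.14 and 4.41 in the Sto organoids of SI medium, against 6.96 to 9.97 elsewhere. The part of the cell mixture in the Fa2h level was not tested, and in bulk samples fewer cells of a type and less RNA per cell cannot be told apart.

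Control SCs against organoids in SI medium, with both origins averaged, compared sorted stem cells with whole differentiated cultures; the sort and the medium changed together here and cannot be told apart. Fa2h was the only member that passed, against 3.99% of all genes, with lower expression in SCs (log2 difference -1.60, SE 0.32, limma adjusted p = 0.0157). Without the contradicting library its log2 difference was -1.40 (limma adjusted p = 0.00583), again as 1 of 10 members against 7.22% of all genes. Against organoids in Sto medium instead, the Fa2h difference was 0.73 (limma adjusted p = 0.713).

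By origin, the Fa2h difference was seen in the stomach samples. Control Sto SCs were 9.25-fold under Sto organoids in SI medium (log2 difference -3.21, SE 0.50, limma adjusted p = 0.00549), where 1 member passed against 6.03% of all genes. In SI samples the difference was 0.01 (SE 0.41), with Fa2h near the array medians on both sides. In SI organoids in SI medium 1 to 3 it read 5.69, 4.91 and 4.08, beside medians of 4.985, 4.833 and 4.902. How far these SI values are signal is unknown, so the SI contrast does not show that Fa2h was unchanged. Leaving out the contradicting library, 3 members passed for stomach against 9.23% of all genes. Far1 was 3.33-fold lower (log2 difference -1.74, SE 0.32, limma adjusted p = 0.00769) and Cers6 2.35-fold higher (log2 difference 1.23, SE 0.26, limma adjusted p = 0.0139) in control Sto SCs, beside Fa2h. In the same fit 1 member passed for SI, against 5.11% of all genes: Far2 was 2.97-fold lower in control SI SCs than in SI organoids 2 and 3 (log2 difference -1.57, SE 0.27, limma adjusted p = 0.0076). Markers of several differentiated cell types were also lower in control SI SCs than in these organoids. The mean of 6 enterocyte markers was 5.89 to 7.03 in control SI SCs, against 11.53 and 11.99 in these 2 organoid samples. The mean of 4 enteroendocrine markers was 4.50 to 4.60 in control SI SCs, against 7.67 and 7.82 in the organoids. For 5 Paneth markers it was 7.32 to 8.51 in control SI SCs, against 10.12 and 10.42 in the organoids, and for 5 goblet markers 8.43 to 9.09 in control SI SCs, against 11.19 and 10.41 in the organoids. In the single SI organoid sample in Sto medium Far2 read 9.56, within the control SI SC range. Its marker means were 6.33 (enterocyte), 5.67 (enteroendocrine), 10.11 (Paneth) and 10.84 (goblet), so Paneth and goblet markers did not follow Far2 there. The part of these cell types was not tested.

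Whether stomach and intestine differed by the same amount in SCs as in SI medium organoids was tested directly. The stomach minus SI difference of Fa2h was 1.96 in SCs, 3.22 log2 units less than in organoids (difference of differences -3.22, SE 0.64, limma adjusted p = 0.0613), and 0 of the 10 members passed, against 0.845% of all genes. Without the contradicting library 2 members passed, against 4.54% of all genes. They were Fa2h (-3.62, SE 0.52, limma adjusted p = 0.00496) and Far1 (-2.42, SE 0.44, limma adjusted p = 0.0149), both with a larger stomach excess in organoids. Far2 had a difference of 1.65 (SE 0.40, limma adjusted p = 0.052) and Cers4 of -0.08 (SE 0.74) in that fit.

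The rest of the pathway was taken from a list of 68 further genes of sphingolipid, very long chain fatty acid, ether lipid and fatty alcohol metabolism, of which 63 were measured. For Cdx2 loss 1 of the 63 rose and 0 fell, against 1.52% of all genes in either direction. This was Sphk1, the kinase that makes sphingosine 1-phosphate, at 7.75 and 7.88 in Cdx2null SI SCs, against 6.01, 6.64 and 5.98 in control SI SCs (log2 difference 1.60, SE 0.22, limma adjusted p = 0.019). The call was lost (0 of 63) with a term for sex, in a fit on all 14 arrays and without control SI SCs 1, control SI SCs 3, Cdx2null SI SCs 1 or Cdx2null SI SCs 2, and with median centring 2 rose and 1 fell. The median log2 difference of the list was 0.22, beside 0.03 for all genes.

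For control Sto against control SI SCs 4 of the 63 rose and 0 fell, against 2.86% of all genes, with a median of 0.14 (-0.07 after median centring of the arrays). There were 0 calls without the first array of either group and in a fit on all 14 arrays. With a term for sex 1 rose, as it did when control SI SCs 3 was left out, and leaving out control SI SCs 2 left 2. Without control Sto SCs 2, 1 rose and 1 fell, and with quantile normalisation, median centring or the filter on low values 3 rose and 1 fell. Sphk1 rose again, with 7.80 and 7.75 in control Sto SCs (log2 difference 1.56, SE 0.22, limma adjusted p = 0.015). Sptssb, a small subunit of serine palmitoyltransferase, the enzyme that starts sphingoid base synthesis, was 9.51 and 7.73 in control Sto SCs, against 5.70, 4.53 and 5.54 in control SI SCs (log2 difference 3.37, SE 0.63, limma adjusted p = 0.0401). St3gal5, which makes the ganglioside GM3, was 6.26 and 6.42 in control Sto SCs, against 4.53, 4.98 and 3.61 in control SI SCs (log2 difference 1.97, SE 0.37, limma adjusted p = 0.0407). In control SI SCs 1 and 3 St3gal5 lay under the array medians of all probe sets (4.88 and 4.72), as did Sptssb in control SI SCs 2 (4.85). How far these low values are signal is unknown. Tmem189, the plasmanylethanolamine desaturase of ether lipid synthesis, had a log2 difference of 1.04 (SE 0.17, limma adjusted p = 0.0284).

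Between Cdx2null SI SCs and control Sto SCs 0 of the 63 passed limma's test. In organoids by origin 0 passed with all arrays. Without the contradicting library 2 rose and 1 fell in Sto organoids, against 1.97% of all genes. These were St3gal5 (log2 difference 3.67, SE 0.45, limma adjusted p = 0.0259), the alkaline ceramidase Acer3 (1.22, SE 0.17, limma adjusted p = 0.0334) and B4galt5 (-2.62, SE 0.20, limma adjusted p = 0.00555). B4galt5 makes lactosylceramide, the step between Ugcg and St3gal5, and it read 6.05 to 6.65 in Sto organoids, against 8.69 to 9.53 in the 3 SI organoid samples left. In the same 3 samples St3gal5 read 3.42 to 4.61, under the array medians of 4.83 to 4.90, so how far these values are signal is unknown.

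Between control SCs and organoids in SI medium 1 of the 63 rose and 4 fell in SCs, against 3.99% of all genes. Sptssa, the other small subunit of serine palmitoyltransferase, was higher (log2 difference 1.25, SE 0.26, limma adjusted p = 0.0192), and Sptssb was lower (-2.62, SE 0.57, limma adjusted p = 0.022). Sphingomyelin synthase Sgms2 (-1.57, SE 0.18, limma adjusted p = 0.00149), sphingosine 1-phosphate lyase Sgpl1 (-1.30, SE 0.18, limma adjusted p = 0.00338) and fatty aldehyde dehydrogenase Aldh3a2 (-1.37, SE 0.19, limma adjusted p = 0.00347) were lower as well. Without the contradicting library 2 rose and 6 fell, against 7.22% of all genes. Among them were the long-chain acyl-CoA synthetase Acsl4 (1.47, SE 0.20, limma adjusted p = 0.00104) and the sulphatide-making enzyme Gal3st1 (-1.15, SE 0.19, limma adjusted p = 0.00329). By origin and with all arrays, 2 rose and 5 fell in stomach samples, against 6.03% of all genes. In SI samples 0 passed limma's test, where 23 of all 18820 genes were higher and 7 lower. Without that library 3 rose and 12 fell in stomach samples, against 9.23% of all genes. In SI samples 1 then rose and 4 fell, against 5.11% of all genes. Against organoids in Sto medium 0 passed. For the difference of origin effects between SCs and organoids 0 of the 63 passed limma's test with all arrays, against 0.845% of all genes. Without the contradicting library Sptssa (1.72, SE 0.32, limma adjusted p = 0.0169) and Tmem189 (-1.98, SE 0.40, limma adjusted p = 0.0238) passed, against 4.54% of all genes.

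The genes most like each of the 3 widely ranging members were found by the root-mean-square difference of their mean-centred log2 profiles over the 14 arrays, where 0 is an identical profile. For Far2 these were Tm4sf20 (0.22 log2 units), a tetraspan membrane protein, Gucy2c (0.32), the guanylin receptor of intestinal cells, and Ms4a10 (0.48). For Fa2h they were Prom2 (0.63), a membrane protrusion protein, the iodide transporter Slc5a5 (0.67) and the blood group transferase Abo (0.69). For Cers4 they were 2610528A11Rik (0.58), the brush border scaffold Ush1c (0.67) and the sulphotransferase Chst4 (0.72). Far2 thus had nearer neighbours than Fa2h and Cers4.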

How the data were processed

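RNA of 14 mouse samples was hybridised to whole-transcript Affymetrix arrays (Mouse Gene ST). The authors normalised the scanned arrays by RMA-sketch and deposited 1 log2 expression value per probe set and array, which was used without further normalisation. RMA keeps silent genes above 0, so folds of weak genes are compressed. Whether the 2 arrays with a lower upper quartile were normalised with the others is not given in the sources used here. Of 35556 probe sets 21218 were annotated to 1 gene, 1881 to several and 12457 to none, and the highest-mean probe set was kept for each of 18820 genes.

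Differences were fitted with limma 3.58.1 in R 4.3.3 (lmFit and eBayes, 2-sided, Benjamini-Hochberg over 18820 genes), on the 7 SC arrays, the 7 organoid arrays or all 14. A gene was called at an adjusted p under 0.05 and a fold of at least 2. The fits were tested on simulated data. Members, gene lists and tests were chosen with earlier results of these data known. All members are named, pathway genes when called, and 3 most similar genes for each of the 3 members with the widest range of group means. Alternatives were quantile normalisation, median centring, a filter on low values, the mean of probe sets, trend and robust fitting, no fold threshold, a term for sex, a replicate block, other array sets, the methods' t-test and leaving out each replicate. Promoter sequences come from RefSeq (GRCm38.p6), with entries for 9 of the 10 genes. The number of arrays limits the precision.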

Additional observations from a re-analysis of the deposited data

How the results depend on the processing

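Values are counts of members called, of 10, unless a gene is named. For Cdx2null SI SCs against control SI SCs, 2 in the main analysis, the count was 1 with a term for sex, 0 with the adjusted methods' t-test, 0 in a fit on all 14 arrays and 1 to 2 when 1 replicate was left out. For control Sto SCs against control SI SCs, 4 in the main analysis, it was 1 with a term for sex, 0 with the adjusted t-test, 0 on all 14 arrays and 1 to 3 with 1 replicate left out. With the replicate block it was 2 and 3, and of the 63 pathway genes 0 and 2 were called. The block and the main fit shared both calls for Cdx2 loss, and Fa2h was the call lost for stomach (log2 difference 1.69, limma adjusted p = 0.0571). The groups share only 2 replicate numbers, and replicate deviations correlated over genes at 0.23 to 0.38 between SC groups and at -0.06 between organoid groups, so the numbers are not known to pair the samples.

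For Sto against SI organoids, 0 in the main analysis, 1 member (Fa2h, log2 difference 5.18, limma adjusted p = 0.0319) was called with SI medium only. The unadjusted t-test also called 1, and leaving out 1 replicate gave 0 to 2. A term for sex, or leaving out either organoid sample in Sto medium, gave the same fit as SI medium only. The only male organoid array is the Sto sample in Sto medium, so the term for sex amounted to leaving that array out. For the medium effect, 1 was called within Sto organoids without the library labelled SI organoids in SI medium 1, against a single array in Sto medium. For control SCs against organoids in SI medium, 1 in the main analysis, the count was 0 with a term for sex, 0 against organoids in Sto medium, 0 in SI samples only, 3 in stomach samples without that library, and 0 to 2 with 1 replicate left out. For the difference of origin effects, 0 in the main analysis, Fa2h alone made 1 with quantile normalisation, median centring, a filter on low values, or trend and robust fitting, and leaving out 1 replicate gave 0 to 2. Over all genes, the number called for Cdx2 loss was 287, and 0 (adjusted t-test) to 498 (unadjusted t-test) under the alternatives, and for stomach SCs 538, and 0 to 828. Median centring moved the median log2 difference of all genes to -0.12 for Cdx2 loss and -0.17 for stomach SCs, and the genes called were then 239 higher and 239 lower for Cdx2 loss, beside 175 and 112 in the main analysis, and 391 and 352 for stomach, beside 366 and 172. The member calls were the same in number. In all, 95 of 125 alternative counts stayed within 1.5 times the main count, and some of these alternatives were the same fit under different names.

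Of 70 pairs of member and comparison, 54 were never called, and 29 of these changed sign under at least 1 alternative. Among the pairs called in some fit, signs turned as follows, on the log2 scale. Against organoids, Fa2h in control SCs was at 0.73 with Sto medium organoids, 0.013 in SI samples and 0.41 in SI samples without the contradicting library. Far1 was at 0.078 in SI samples and 0.69 without that library, and Cers6 at -0.054 without it. Far2 was at -0.014 with Sto medium organoids and at -1.57 in SI samples without that library, and between -0.75 and 0.99 with 1 replicate left out. The medium effect on Fa2h was 0.23 within SI organoids without that library, and its difference of origin effects was 1.09 with organoids in Sto medium. The cause was not tested. The alternatives by origin, and those without that library inside a larger fit, were chosen after seeing the data. Groups of 1 to 3 arrays limit all tests.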
